A study of Mus musculus with 15 samples.

Results

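Cultured bone marrow MSCs were examined for 10 genes of the IL-1 family, which were taken by symbol from 56832 counted genes and which all passed the filter on low counts that left 17204 genes to test. They are the agonist ligands Il1a, Il1b, Il18 and Il33, the receptor antagonist Il1rn, the signalling receptors Il1r1 and Il1rl1, the shared co-receptor Il1rap, the decoy receptor Il1r2 and the soluble inhibitor Il18bp. The libraries came from long bone MSC cultures of 16 week old mice and were labelled as 4 male and 3 female TauT+/+ samples and as 4 male and 4 female TauT-/- samples. TauT-/- mice carry a global knockout of Slc6a6, the taurine transporter, on a C57BL/6J background, so every cell type in the animal and in the culture lacks the intact gene, and TauT+/+ mice were the controls. Both genotypes were grown on type I collagen in serum-containing medium at low oxygen. The series calls the cultures CD45- and magnetically sorted, and the study's methods give either magnetic depletion of CD45, Ter119 and CD31 cells or flow sorting, without saying which was used for these libraries. No source used here names a cytokine treatment or says that libraries of a group came from separate mice, so the p-values measure the spread between these libraries, which may be technical.

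IL-1 alpha and IL-1 beta bind the receptor encoded by Il1r1, which then recruits the co-receptor encoded by Il1rap and signals through Myd88, IRAK kinases and Traf6 to NF-kB and MAP kinases. Il1rn encodes an antagonist that occupies the same receptor without recruiting the co-receptor, Il1r2 encodes a receptor that binds ligand without signalling, and the Il18bp protein traps IL-18. IL-1 beta and IL-18 are made as precursors that caspase-1 cleaves in the inflammasome, whereas IL-33 is a nuclear alarmin whose receptor is encoded by Il1rl1. In bone marrow IL-1 alpha and IL-1 beta come largely from myeloid cells, and stromal cells respond to them with chemokines, proteases and factors that promote osteoclasts.

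Levels are given as CPM, which are deposited counts scaled to a common library size by TMM. Libraries with the male label held 69764291 to 101575071 counts and those with the female label 12761107 to 20781070, so depth and sex label cannot be told apart. Slc6a6 had 592 to 2591 CPM in TauT+/+ and 401 to 1521 CPM in TauT-/- libraries, which overlapped (edgeR log2 fold change -0.97, SE 0.36, adjusted p = 0.125), so libraries are named by their labels throughout. Sex-linked genes went against the sex label in 3 libraries, TauT+/+ male 1, TauT-/- male 1 and TauT+/+ female 3. The libraries male 1 and female 1 of each genotype were far closer to each other (spread of log2 ratios between genes 0.109 and 0.121) than the next closest pair (0.3), although above the counting spread of 0.0643 and 0.0672. All 15 were kept as labelled. Fits with 13 libraries are given where they bear on a result, and values with 12 libraries are given at the end. The MSC label was checked against 18 stromal markers, all of which were detected, with summed levels of 35296 to 52257 CPM in TauT+/+ and 7604 to 48441 CPM in TauT-/- libraries. The sum rests mostly on Col1a1, Cxcl12, Col1a2 and Col3a1 (means of 12883, 12120, 7173 and 6924 CPM in TauT+/+). Lepr and Lum were barely expressed, at means of 0.993 and 0.506 CPM in TauT+/+ libraries. Macrophage markers were present in every library as well, at 1675 to 11386 CPM summed in TauT+/+ and 8076 to 29177 CPM in TauT-/- libraries. Ptprc, which encodes CD45 and is named after its values were seen, still had 123 ± 52.5 CPM in the 7 TauT+/+ and 234 ± 87.6 CPM in the 8 TauT-/- libraries (SD).

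In GRCm39 the genes lie in a few places. The receptor genes Il1r2, Il1r1 and Il1rl1 share a cluster on chromosome 1, at 40113239 to 40164391, 40264174 to 40356417 and 40468730 to 40504575, all on the plus strand. Il1rl1 ends 136 bases before Il18r1, the gene of the IL-18 receptor subunit that binds ligand. On chromosome 2, Il1a (129140291 to 129152098) and Il1b (129206490 to 129213059) are 54.4 kb apart on the minus strand, and Il1rn (24226865 to 24241506, plus strand) lies 104.9 Mb away beside the IL-36 genes. Il18bp is on chromosome 7 (101638490 to 101668206, minus strand), Il18 on chromosome 9 (50466081 to 50493633, plus), Il1rap on chromosome 16 (26400350 to 26548880, plus) and Il33 on chromosome 19 (29902483 to 29938933, plus). Exons of Il18bp share 446 bases with Numa1 on the opposite strand. Exons of Il1rap, Il1a, Il33 and Il1b share 1425, 477, 159 and 95 bases with antisense RNAs. The authors counted reads by strand, but their methods do not say that the library preparation kept the strand. Reads of the overlapping genes may therefore be mixed in these counts.

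Il1rn was the most abundant member and had the lowest fitted log2 fold change, and the counts cannot say which of its starts was used. Its 5 annotated coding transcripts begin in an upstream or a downstream region, from which the intracellular and the secreted antagonist arise, and a count per gene adds them up. The 250 bases before each region's first start are shown here, 5′ to 3′ on the plus strand of GRCm39, with matches to the searched motifs in capitals.
Il1rn upstream start, chr2:24226615-24226864: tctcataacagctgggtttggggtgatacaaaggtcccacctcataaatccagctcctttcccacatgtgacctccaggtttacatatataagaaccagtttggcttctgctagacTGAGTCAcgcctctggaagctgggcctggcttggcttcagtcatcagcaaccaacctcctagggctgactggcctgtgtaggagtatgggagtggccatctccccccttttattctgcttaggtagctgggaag
Il1rn downstream start, chr2:24235050-24235299: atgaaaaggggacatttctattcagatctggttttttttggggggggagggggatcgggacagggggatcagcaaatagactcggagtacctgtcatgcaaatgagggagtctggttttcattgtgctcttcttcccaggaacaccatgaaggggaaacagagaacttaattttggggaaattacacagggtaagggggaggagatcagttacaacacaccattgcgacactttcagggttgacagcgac
Both strands were searched for the NF-kB consensus, AP-1 (TGANTCA), GAS (TTCNNNGAA) and PU.1 (GAGGAA), motifs that were chosen with the expression results known. The upstream window held 1 match, TGAGTCA for AP-1, 134 bases before the start, and the downstream window held none of the 4. AP-1 was present in 6.14% of 21580 windows of the same length before canonical starts of coding genes, and the NF-kB consensus, GAS and PU.1 in 4.24%, 7.71% and 22.9%. A match describes letters and not a bound site, and none says only that these letters are absent from this window.

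Per kilobase of exon, Il1rn and Il1r1 stood above the rest of the family. The median level over 15 libraries was 24.3 CPM per kb for Il1rn and 10.1 CPM per kb for Il1r1, and Il1rn was the higher in 14 of 15 libraries. Il1r1 in turn exceeded Il18 (1.37 CPM per kb) in 15 of 15 libraries. Il18, Il18bp (1.12), Il1rap (0.958), Il1b (0.560) and Il1rl1 (0.505 CPM per kb) followed, and neighbours in this order exchanged places between libraries, with Il18 above Il18bp in 10, Il18bp above Il1rap in 6, Il1rap above Il1b in 11 and Il1b above Il1rl1 in 7 of 15. Il1a (0.0347), Il1r2 (0.0295) and Il33 (0.0169 CPM per kb) were near the limit of detection, and Il1rl1 exceeded Il1a in 14 of 15 libraries. So the cultures carried much mRNA for the antagonist and the signalling receptor of IL-1 and little for the agonist ligands.

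**Figure D1:**
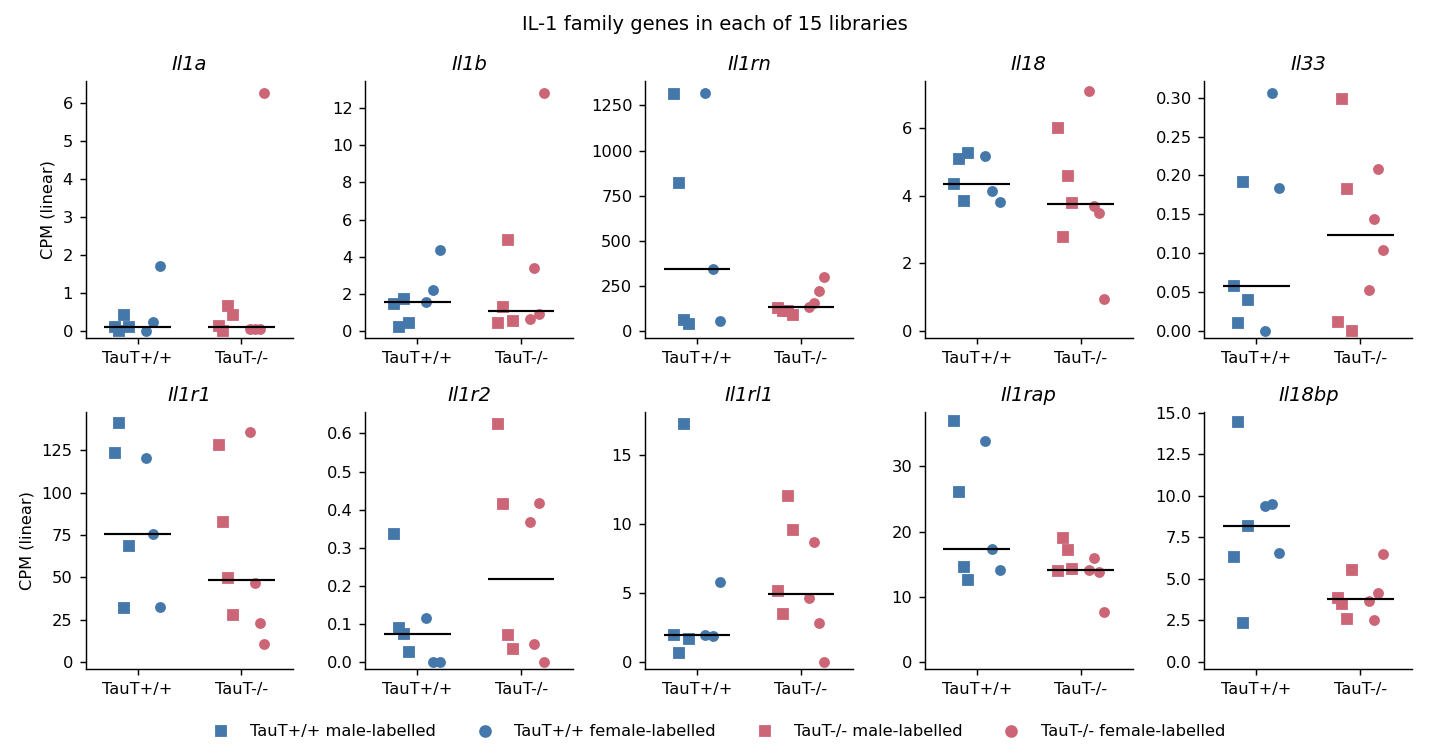
CPM of each member in each library on linear axes that differ between panels, with squares for male-labelled and circles for female-labelled libraries and a bar at the median of each genotype. Il1rn in TauT-/- libraries (89.6 to 298 CPM) sits between a low and a high set of TauT+/+ libraries, and 1 TauT-/- library stands far above the others for Il1a (6.26 CPM) and Il1b (12.8 CPM).

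Between the genotypes, edgeR called 0 of the 10 members higher and 0 lower in TauT-/- MSCs (adjusted p under 0.05), where it called 0.546% and 0.75% of all genes tested. Without adjustment, 3 members were lower at a p under 0.05 (Il1rn, Il18bp and Il1rap; 13% of all genes) and 0 were higher (10.6% of all genes). DESeq2, the tool of the study's own analysis, called 2 members lower, Il1rn and Il18bp, and 0 higher. It called 1136 genes lower and 968 higher, which is 3.42% and 2.92% of the 33207 genes with any count. That base includes genes with few counts that the edgeR filter removed, so these shares are low for members, which all passed the filter. In no member did the genotypes separate fully, which 1.13% of all genes tested did. The median log2 fold change of the 10 members was 0.08, beside -0.02 over all genes tested. The cultures are bulk samples, so that fewer cells of a type and less RNA per cell cannot be told apart.

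Il1rn, the receptor antagonist, was lower on average in TauT-/- cultures but did not pass the edgeR threshold. In TauT+/+ cultures its level was 1314, 823, 62.7 and 38.0 CPM (male 1 to 4) and 1321, 343 and 57.0 CPM (female 1 to 3). In TauT-/- cultures it was 130, 110, 110 and 89.6 CPM (male 1 to 4) and 134, 157, 224 and 298 CPM (female 1 to 4). The TauT-/- libraries thus lay close together and wholly inside the TauT+/+ range, below 4 and above 3 of the 7 TauT+/+ libraries. Of those 4, male 1 and female 1 are a close pair. The largest TauT+/+ level was 34.8 times the smallest, against 3.33 times in TauT-/- libraries. Mean Il1rn was 565 ± 582 CPM (SD, n = 7) against 157 ± 70.1 CPM (SD, n = 8), which edgeR fitted as a log2 fold change of -1.96 (SE 0.71, 95% interval -3.48 to -0.43, edgeR adjusted p = 0.123). DESeq2 gave -1.94 with an adjusted p of 0.0339. With 13 libraries the edgeR value for Il1rn was -1.53 with the female-labelled and -1.48 with the male-labelled library of each close pair kept (adjusted p = 0.231 and 0.353), and voom with sample weights gave -1.09 (limma adjusted p = 0.277).

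The 3 TauT+/+ libraries with little Il1rn, male 3, male 4 and female 3, were also the 3 TauT+/+ libraries with the lowest Slc6a6, at 830, 592 and 1289 CPM against 1712 to 2591 CPM in the other 4. They had the lowest stromal sums of that genotype too, at 35296 to 37371 CPM. Across the 7 TauT+/+ libraries log2 Il1rn and the log2 stromal sum had a Pearson r of 0.964, and across the 8 TauT-/- libraries -0.517, both given as descriptions since each pair of points shares a library and its scaling. The close pair TauT+/+ male 1 and female 1 had the highest Il1rn and the largest stromal sums of that genotype (52186 and 52257 CPM). This r thus counts nearly the same extreme point more than once. Every r within a genotype given here includes both libraries of its close pair. The part of the stromal level or of Slc6a6 in the Il1rn values was not tested.

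Il18bp, which neutralises IL-18, had the smallest p of the members. TauT+/+ libraries had 6.32, 14.4, 2.36 and 8.19 CPM under the male label and 9.37, 9.49 and 6.54 CPM under the female label. TauT-/- libraries had 3.87, 3.48, 2.60 and 5.54 CPM (male 1 to 4) and 3.67, 2.54, 4.17 and 6.52 CPM (female 1 to 4). All 8 TauT-/- libraries were below the TauT+/+ median, and 1 TauT+/+ library, male 3, was below all of them. Mean Il18bp was 8.10 ± 3.70 (SD, n = 7) against 4.05 ± 1.37 CPM (SD, n = 8), and its fitted log2 fold change was -1.01 (SE 0.32, 95% interval -1.69 to -0.33, edgeR adjusted p = 0.0916). DESeq2 (adjusted p = 0.0286) and voom (limma adjusted p = 0.0460) called Il18bp lower, and so did edgeR without TauT+/+ male 3 (adjusted p = 0.0219), in fits that called 4.12% (voom) and 4.88% (without that library) of all genes lower. With 13 libraries the log2 fold change of Il18bp was -1.05 or -0.93 (edgeR adjusted p = 0.131 and 0.190), and with the macrophage list mean as a covariate it was -0.55 (edgeR adjusted p = 0.642) in a fit that called 0% of all genes in either direction. Il18bp and the macrophage sum had a Pearson r of log2 values of -0.585 over 15 and -0.615 over 13 libraries, but within the genotypes the sign differed, with -0.613 over 7 TauT+/+ and 0.206 over 8 TauT-/- libraries. These values are descriptions, and the part of macrophages in its difference was not tested.

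Il1rap, the co-receptor that the IL-1 and IL-33 receptors share, had a smaller difference. TauT+/+ libraries had 36.9, 26.1, 14.6 and 12.6 CPM (male 1 to 4) and 33.8, 17.4 and 14.1 CPM (female 1 to 3). TauT-/- libraries had 14.0, 19.1, 17.2 and 14.2 CPM (male 1 to 4) and 14.0, 15.9, 13.8 and 7.61 CPM (female 1 to 4). Only 3 TauT+/+ libraries, male 1, male 2 and female 1, lay above every TauT-/- library, and 2 of these form a close pair. Mean Il1rap was 22.2 ± 10.05 (SD, n = 7) against 14.5 ± 3.35 CPM (SD, n = 8), and its fitted log2 fold change was -0.61 (SE 0.26, 95% interval -1.16 to -0.07, edgeR adjusted p = 0.167). With 13 libraries it was -0.45 or -0.41 (edgeR adjusted p = 0.319 and 0.386). Il1rap followed the stromal sum in both genotypes (Pearson r of log2 values 0.987 over 7 TauT+/+ and 0.789 over 8 TauT-/- libraries, as a description), and the part of that sum in its difference was not tested. Both r values include the close pair of the genotype, which in TauT+/+ had the highest Il1rap and the largest stromal sums.

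Il1r1, the signalling receptor, was abundant but spread over a wide range in both genotypes. It had 123, 141, 31.8 and 68.8 CPM in male-labelled and 121, 75.4 and 32.3 CPM in female-labelled TauT+/+ libraries. In TauT-/- libraries it had 128, 82.5, 49.4 and 27.5 CPM (male 1 to 4) and 136, 46.9, 23.2 and 10.5 CPM (female 1 to 4). The groups overlapped over most of their range, and 3 TauT-/- libraries were below every TauT+/+ library. The log2 fold change of Il1r1 was -0.41 (SE 0.51, 95% interval -1.50 to 0.68, edgeR adjusted p = 0.655), so a difference in either direction was not detectable. Il1r1 was low where the macrophage sum was high (Pearson r of log2 values -0.691 over 15 libraries, -0.518 within TauT+/+ and -0.898 within TauT-/-) and high where the stromal sum was high (0.725, 0.866 and 0.733), as a description.

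**Figure D2:**
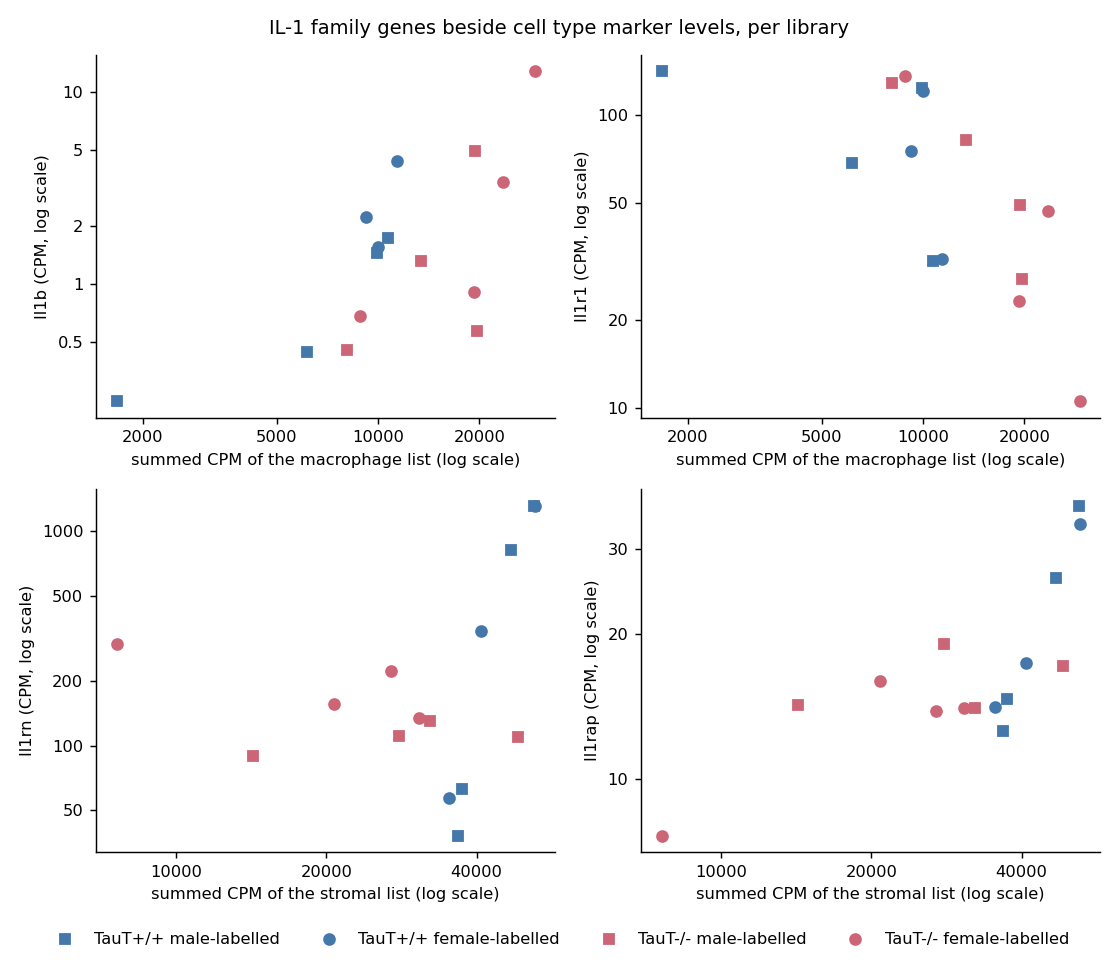
Each point is 1 library, with the summed CPM of macrophage or stromal markers on the horizontal axis and the CPM of a member on the vertical axis, both on log scales. Il1b is highest (12.8 CPM) and Il1r1 lowest (10.5 CPM) in the TauT-/- library with the largest macrophage sum (29177 CPM), while Il1rn and Il1rap are highest in the TauT+/+ libraries with the largest stromal sums.

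Il1rl1, the IL-33 receptor gene, whose counts do not separate its membrane and soluble forms, had 1.97, 0.656, 17.3 and 1.64 CPM in male-labelled and 1.95, 1.91 and 5.804 CPM in female-labelled TauT+/+ libraries. In TauT-/- libraries it had 5.15, 3.48, 12.1 and 9.58 CPM (male 1 to 4) and 4.66, 8.73, 2.85 and 0 CPM (female 1 to 4), where 0 counts allow up to 0.156 CPM by counting error. The median was higher in TauT-/- (4.91 CPM) than in TauT+/+ libraries (1.95 CPM), but the highest library of all was TauT+/+ male 3. The log2 fold change of Il1rl1 was 0.42 (SE 0.79, 95% interval -1.27 to 2.10, edgeR adjusted p = 0.782), and 1.33 without TauT+/+ male 3, still short of the threshold (edgeR adjusted p of 0.295 or more in every fit that left out 1 library). Il1r2, the decoy receptor, was barely detected, with 153 counts in all 15 libraries and at most 0.625 CPM, and 3 libraries had none. Its log2 fold change was 1.43 (SE 0.86, 95% interval -0.40 to 3.26, edgeR adjusted p = 0.327), with 4 TauT-/- libraries above every TauT+/+ library. Of these 4, male 1 and female 1 are a close pair, and female 1 and female 3 rest on 7 and 6 counts.

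Among the agonists, Il1b was expressed at a low level everywhere. TauT+/+ libraries had 1.46, 0.245, 1.72 and 0.444 CPM (male 1 to 4) and 1.55, 2.22 and 4.38 CPM (female 1 to 3). TauT-/- libraries had 0.454, 1.31, 4.90 and 0.569 CPM (male 1 to 4) and 0.681, 3.41, 0.903 and 12.8 CPM (female 1 to 4). The median was slightly lower in TauT-/- (1.11 CPM) than in TauT+/+ libraries (1.55 CPM), while the mean was higher (3.13 ± 4.23, SD, n = 8, against 1.72 ± 1.37 CPM, SD, n = 7), and the 2 highest libraries of all were TauT-/- female 4 and male 3. The log2 fold change of Il1b was 0.81 (SE 0.70, 95% interval -0.68 to 2.30, edgeR adjusted p = 0.501), and 0.20 without TauT-/- male 3. Il1b was high where the macrophage sum was high (Pearson r of log2 values 0.689 over 15 libraries, 0.865 within TauT+/+ and 0.742 within TauT-/-, as a description), and the part of macrophages in its level was not tested.

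Il1a had 336 counts in all 15 libraries, 120 of them in TauT-/- female 4. That library had 6.26 CPM, and the others had 0 to 1.70 CPM in TauT+/+ and 0.0115 to 0.672 CPM in TauT-/- cultures. The log2 fold change of Il1a was 1.05 (SE 1.16, 95% interval -1.42 to 3.53, edgeR adjusted p = 0.609) and turned to -0.51 without TauT-/- female 4. The same library was the extreme one for several other members, with the highest Il1b (12.8 CPM) and the lowest Il18 (0.938 CPM), Il1r1 (10.5 CPM), Il1rap (7.61 CPM) and Il1rl1 (0 CPM). It also had the largest macrophage sum (29177 CPM) and the smallest stromal sum (7604 CPM), and its sums of neutrophil, lymphocyte and endothelial markers were the largest of all libraries (314, 305 and 164 CPM).

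Il18, which unlike Il1b is made in many cell types before any stimulus, was even in TauT+/+ cultures and uneven in TauT-/- cultures. The 7 TauT+/+ libraries lay between 3.82 and 5.24 CPM (median 4.34), a range of 1.37 times. The TauT-/- levels were 5.995, 2.77, 4.59 and 3.79 CPM (male 1 to 4) and 7.07, 3.70, 3.47 and 0.938 CPM (female 1 to 4), a range of 7.54 times, or 2.55 times without TauT-/- female 4. So 5 TauT-/- libraries were below and 2 above all TauT+/+ libraries, and the 2 above are a close pair. The log2 fold change of Il18 was -0.15 (SE 0.31, 95% interval -0.81 to 0.51, edgeR adjusted p = 0.798). Il33, the nuclear alarmin, had 88 counts in all and at most 0.306 CPM, too few for a difference to be seen (log2 fold change 0.31, SE 0.82, edgeR adjusted p = 0.853).

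**Figure D3:**
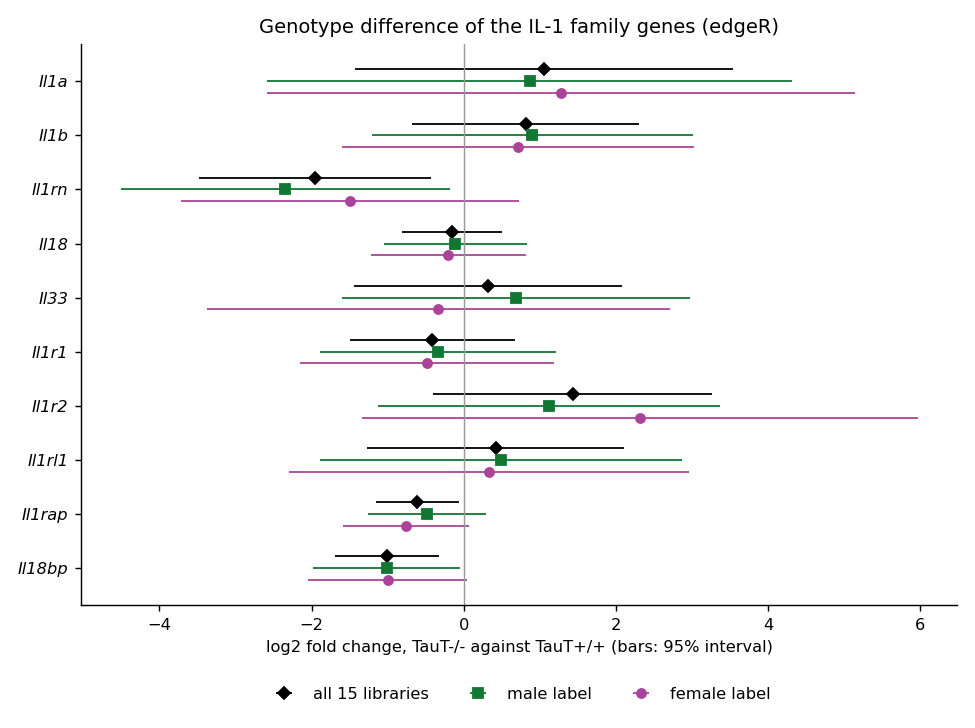
edgeR log2 fold changes of the members in TauT-/- against TauT+/+ MSCs over all 15 libraries (diamonds) and within the male (squares) and female (circles) label, with 95% intervals as bars. Il18bp lies at -1.01, -1.02 and -1.002 in the 3 fits, and the intervals of all members except Il1rn, Il1rap and Il18bp include 0 in the fit over all libraries.

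Within the sex labels, 0 members and 0% of all genes tested passed the edgeR threshold in male-labelled and 0 members and 0% of genes in female-labelled libraries. At an unadjusted p under 0.05, 2 members were different in male-labelled libraries, Il1rn and Il18bp (8.62% of all genes), and 0 in female-labelled ones (14.6% of all genes). The log2 fold change of Il18bp was -1.02 under the male and -1.002 under the female label, that of Il1rn was -2.35 and -1.50, and that of Il1rap was -0.49 and -0.76. The difference between the sex labels, tested as such, was past the threshold for 0 members and 0% of genes, with 0 members at an unadjusted p under 0.05 (1.41% of all genes). Its interval for Il1rn ran from -2.20 to 3.90, and for Il18bp from -1.41 to 1.43, so the labels could differ by a large amount without being seen here.

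The balance of antagonist to agonist was described by the log2 ratio of Il1rn to the sum of Il1a and Il1b, each with 0.5 CPM added. This log2 ratio was 6.93 ± 2.73 over the 7 TauT+/+ and 5.78 ± 1.23 over the 8 TauT-/- libraries (SD), ranging from 3.13 to 10.1 and from 3.93 to 7.25. Antagonist mRNA was in excess of agonist mRNA in every library of both genotypes, and the TauT-/- values lay inside the TauT+/+ range.

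Of 11 further ligands and receptors of the family, 5 passed the filter and were tested, and 1 had no count in any library. Both edgeR and DESeq2 called 0 of the 5 in either direction, 0 had an unadjusted p under 0.05, and their median log2 fold change was -0.61. Il18r1, needed to bind IL-18, had 3 counts in all 15 libraries, while Il18rap, its accessory chain, had 3061. Il1rl2, the IL-36 receptor gene in the receptor cluster, had the highest mean over all libraries in this group, with 18.2 ± 5.87 CPM in the 7 TauT+/+ and 11.99 ± 7.20 CPM in the 8 TauT-/- libraries (SD, log2 fold change -0.61, edgeR adjusted p = 0.312). Il36g, an IL-36 agonist, had the smallest p and was at 0.348 ± 0.413 and 1.13 ± 1.34 CPM (log2 fold change 1.78, edgeR adjusted p = 0.232). Its log2 fold change ran from 1.01 without TauT-/- female 4 to 2.55 without TauT+/+ female 3.

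All 22 genes of IL-1 receptor signalling were expressed, and 16 had a positive and 6 a negative log2 fold change. Both edgeR and DESeq2 called 0 in either direction, although DESeq2 gave Traf6 no adjusted p. At an unadjusted edgeR p under 0.05, 4 were higher and 0 lower, beside 10.6% and 13% of all genes tested. The median of the 22 genes was 0.13. Tab2, which links Traf6 to the kinase TAK1, had both the highest mean over all libraries and the smallest p, at 154 ± 26.8 and 207 ± 43.6 CPM (log2 fold change 0.41, edgeR adjusted p = 0.119). Of 17 genes of cytokine processing and release, 15 were tested, with a median log2 fold change of 0.41. Among these, edgeR called 1 higher and 0 lower, beside 0.546% and 0.75% of all genes tested. Without adjustment, 4 were higher and 0 lower at an edgeR p under 0.05, beside 10.6% and 13% of all genes. The gene that rose was Pycard, which encodes the inflammasome adaptor ASC. Its level was 8.76 ± 2.72 CPM in the 7 TauT+/+ and 19.3 ± 5.72 CPM in the 8 TauT-/- libraries (SD), with every TauT-/- above every TauT+/+ library (log2 fold change 1.14, SE 0.24, edgeR adjusted p = 0.0398). In the 15 fits that left out 1 library the call held in 5, without TauT+/+ male 1 or male 3 or TauT-/- female 1, female 2 or male 2, and was lost in 10, with edgeR adjusted p of 0.0223 to 0.0966. With 13 libraries the log2 fold change of Pycard was 1.28 or 1.26 and the edgeR adjusted p 0.0718 or 0.0942, in fits that called 2 or 7 genes higher in all, and with the macrophage covariate the log2 fold change of Pycard was 0.56 (edgeR adjusted p = 0.246). DESeq2 also called Aim2 and Gsdme, a DNA sensor and a pore-forming protein, higher (log2 fold changes 0.96 and 0.47, adjusted p = 0.0241 and 0.0341). It called 2.92% of the 33207 genes with any count higher.

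**Figure D4:**
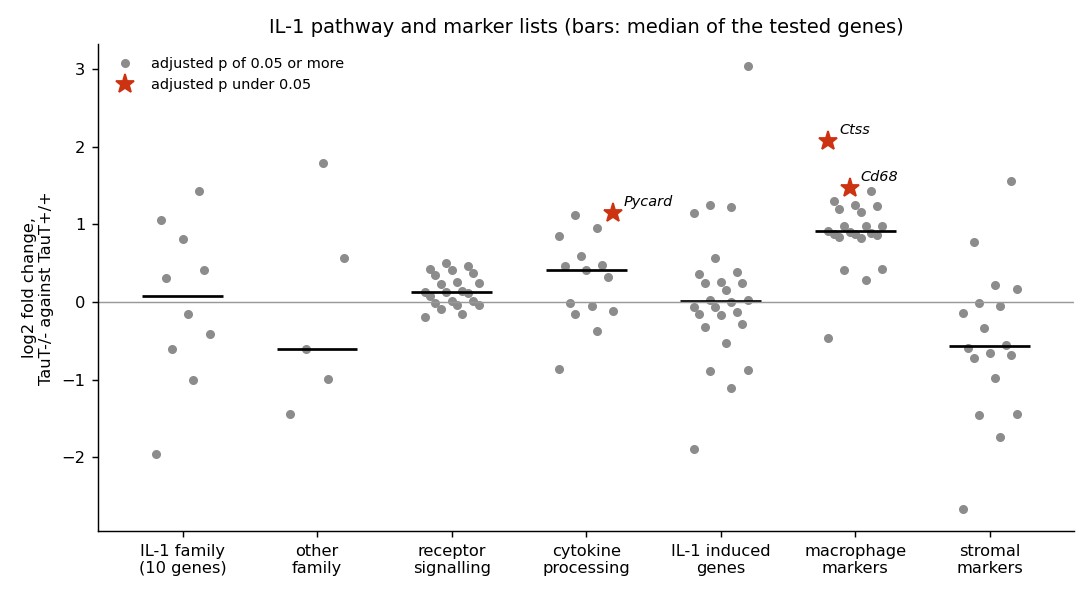
Each point is the edgeR log2 fold change of 1 tested gene in TauT-/- against TauT+/+ MSCs, grouped by gene list, with a bar at the list's median and a star for an adjusted p under 0.05. The receptor signalling genes lie close to 0 (median 0.13), the macrophage markers mostly above it (median 0.91) and the stromal markers mostly below it (median -0.57).

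Genes that IL-1 induces in stromal cells were split evenly in direction. Of 27, 26 were tested, 13 had a positive and 13 a negative log2 fold change, edgeR called 0 in either direction (1 higher and 1 lower at an unadjusted p under 0.05, beside 10.6% and 13% of all genes), and the median was 0.01. Ccl2, a monocyte chemokine, had the highest mean over all libraries, at 215 ± 101.3 and 272 ± 150 CPM (log2 fold change 0.36, edgeR adjusted p = 0.635). Vcam1, an adhesion molecule, had the smallest p, with 350 ± 288 CPM in the 7 TauT+/+ and 95.9 ± 53.6 CPM in the 8 TauT-/- libraries (SD), a log2 fold change of -1.90 that missed the threshold (SE 0.50, edgeR adjusted p = 0.0646). DESeq2 (adjusted p = 0.00429) and voom (limma adjusted p = 0.0156) called Vcam1 lower. DESeq2 also called Nos2, the inducible nitric oxide synthase, higher, at 13.1 ± 11.995 and 124 ± 212 CPM (log2 fold change 3.07, adjusted p = 0.0199). Among the 33207 genes with any count DESeq2 called 2.92% higher and 3.42% lower, and voom called 4.12% of all genes tested lower.

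Some markers of other cell types differed between the genotypes. Of 23 macrophage markers, 22 had a positive log2 fold change and 2 were higher, Cd68 (1.46, edgeR adjusted p = 0.0445) and Ctss (2.07, edgeR adjusted p = 0.0467), a lysosomal protein and a lysosomal protease, with 0 lower. Over all genes tested edgeR called 0.546% higher and 0.75% lower. Of the 23 macrophage markers, 16 were higher and 0 lower at an unadjusted edgeR p under 0.05, beside 10.6% and 13% of all genes. DESeq2 called 10 macrophage markers higher and 0 lower, beside 2.92% and 3.42% of 33207 genes with any count. When each library was left out in turn, Cd68 kept its call 3 and Ctss 2 times in 15, and neither passed with 13 libraries (edgeR adjusted p of 0.0718 to 0.0974), where Cd68 was at 1.70 and 1.60 and Ctss at 2.26 and 2.11. Of 18 stromal markers 14 had a negative log2 fold change and edgeR called 0. At an unadjusted edgeR p under 0.05, 1 was higher and 4 were lower, beside 10.6% and 13% of all genes. Col1a1 and Pdgfra were at -0.68 and -1.45 (edgeR adjusted p = 0.328 and 0.108). DESeq2 called 2 stromal markers lower, Pdgfra (adjusted p = 0.0334) and Dcn (log2 fold change -2.65, adjusted p = 0.0284), and voom called Pdgfra (limma adjusted p = 0.0346). In the neutrophil list 5 of 12 genes were tested, 0 were called by edgeR or DESeq2 and 0 had an unadjusted p under 0.05, S100a9 had 4 counts in all and Retnlg 0, and Fpr1 and Camp were at 0.72 and -0.76 (edgeR adjusted p = 0.642 and 0.416). DESeq2 gave S100a8 no adjusted p. In the mast cell and basophil list 3 of 10 genes were tested, with 0 called by edgeR or DESeq2 and 0 at an unadjusted p under 0.05 (Kit 0.30, Mcpt8 1.47, edgeR adjusted p = 0.873 and 0.499). In the lymphocyte list 2 of 12 were tested and edgeR called 0, with Cd3e at 0 counts and Il7r at 2.44 (edgeR adjusted p = 0.0702), the 1 gene at an unadjusted p under 0.05. DESeq2 (adjusted p = 0.00169) and voom (limma adjusted p = 0.0348) called Il7r higher. In the endothelial list 8 of 12 were tested and edgeR called 0, with 2 higher at an unadjusted p under 0.05 (Flt1 3.11, Kdr 2.14, edgeR adjusted p = 0.169 and 0.0561). DESeq2 called both higher (adjusted p = 0.0316 and 0.000807), and voom called Kdr (limma adjusted p = 0.0155). The endothelial list did not move as a whole. Of the 8 tested genes 6 had a positive and 2 a negative log2 fold change, Pecam1 (-0.19) and Plvap (-0.36), and Cdh5 was at 0.09. Tie1, Emcn, Erg and Sox17 had 20, 33, 72 and 1 counts in all and were not tested. When the mean log2 CPM of the macrophage markers entered the model, the fitted log2 fold changes of Il1a, Il1b, Il33 and Il1rl1 turned from positive to negative (-1.75, -0.77, -0.81 and -0.25) and those of Il18 and Il1r1 from negative to positive (0.18 and 0.12), whereas Il1rn stayed at -1.96 and Il1rap at -0.62. That fit called 0 members, but also 0 of 17204 genes in either direction.

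**Figure D5:**
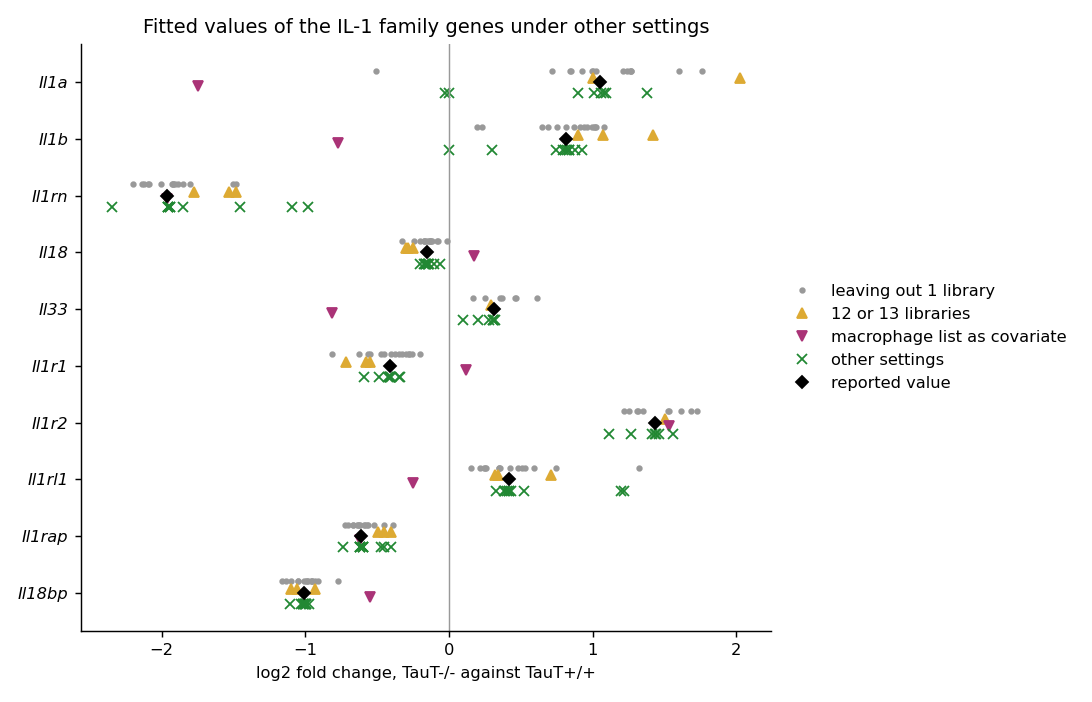
Fitted log2 fold changes of the members under other settings, with the reported value as a diamond, fits that left out 1 library as dots, fits with 12 or 13 libraries as upward triangles, the macrophage covariate as a downward triangle and the remaining settings as crosses. Il1rn, Il1rap and Il18bp stay below 0 in every fit shown, and Il1r2 stays above 0.

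The members followed different sets of genes across the 15 libraries. By Pearson correlation of log2 CPM, the genes closest to Il1r1 were Sned1, Bicc1 and Hoxa3 (r = 0.968, 0.967 and 0.957), and those closest to Il18 were Fbln1, Cyp39a1 and C230013L11Rik (0.940, 0.935 and 0.920). Il18bp was closest to the interferon-inducible GTPase genes Gbp11 and Gbp6 and to Gm50295 (0.950, 0.935 and 0.933). Il1rn was closest to Phf7, Jak1 and Fcor (0.940, 0.934 and 0.932), and Il1b to Plin2, Slc16a6 and Slc7a7 (0.938, 0.919 and 0.913). Il1rl1 was closest to Orc1, Fyb2 and Zwilch (0.967, 0.926 and 0.924), and Il1rap to Lsm3, 1700056E22Rik and Mbd4 (0.934, 0.919 and 0.915). For the rare transcripts the nearest genes were Gm14275, Slc13a3 and Batf for Il1a (0.925, 0.905 and 0.884), Slc39a6, Klf10 and Ntn1 for Il33 (0.857, 0.845 and 0.829) and Rbm3, Eif3i and Zc3hc1 for Il1r2 (0.856, 0.854 and 0.842). These are the 3 highest values over all genes tested for each member and the points share libraries and scaling, so they are descriptions. Within the family, Il1r1 went with Il18 (0.769) and Il1rap (0.701) and against Il1a (-0.754), and Il1a went with Il1b (0.681).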

How the data were processed

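Bulk RNA-sequencing libraries of 15 MSC cultures were analysed from a table of whole-number read counts per gene that the authors deposited without normalization. According to the submitters' processing notes and the study's methods, the authors trimmed reads with fastp 0.23.1, aligned them to GRCm39 (GENCODE M31 genes) using STAR 2.7.9a, and counted them by strand with featureCounts of Subread 2.0.1. cDNA was amplified by PCR, so reads are not independent molecules, and counting limits (a floor of 3 counts per library where a gene had 0) cover counting error only. Total counts differed by sex label, and a gene with few counts, such as Il33 or Il1r2, is measured with little precision.

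Counts were normalized by TMM, filtered with filterByExpr and tested with the quasi-likelihood test of edgeR 4.0.16 (R 4.3.3) on sex label plus genotype. Benjamini-Hochberg adjustment ran over 17204 genes, with a threshold of 0.05. Contrasts within a sex label came from a model with 1 term per group. Standard errors are the log2 fold change divided by the square root of F. The tests were also run on simulated counts of independent libraries. Those held no close pairs, so they could not check the p-values of data with such pairs. Alternatives were DESeq2 1.42.0, limma 3.58.1 (voom with sample quality weights), other normalizations and filters, no sex term, the replicate number as a block, the mean log2 CPM of macrophage markers as a covariate, each sex label alone, 13 or 12 libraries, and leaving out each library. No column of the table was without a sample.

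The members and gene lists were chosen with earlier results of these data known. Named beside the members are Slc6a6, list genes past the threshold, otherwise those with the highest level and the smallest p of a list, and the 3 genes closest to each member by Pearson correlation of log2 CPM (prior count 2). Genes named outside this rule were chosen after their values were seen: Il18r1, S100a9, Retnlg and Cd3e, which had few or no counts, Il18rap and Ptprc, which were expressed, and Nos2, Dcn, Aim2 and Gsdme, which DESeq2 called. So were Pecam1, Plvap, Cdh5, Tie1, Emcn, Erg and Sox17 of the endothelial list. The same holds for Cxcl12, Col1a2, Col3a1, Lepr and Lum of the stromal list, and for Traf6 and S100a8. Positions, exon lengths and promoter windows were read from the GRCm39 genome with the newer GENCODE M39 gene models.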

Additional observations from a re-analysis of the deposited data

Results flagged for a closer look

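Over 30 groups of 4 libraries (10 members in the male-labelled libraries of each genotype and in the female-labelled TauT-/- libraries), 2 had a highest library whose gap to the next, as a share of the group's whole range, passed Dixon's 95% critical value. Chance flags about 1 in 20 such groups, or 1.5 of 30. Il1a in TauT-/- female 4 stood apart from the other libraries with a share of 0.997 (6.26 CPM). Il1rl1 in TauT+/+ male 3 stood apart with a share of 0.921 (17.3 CPM).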

How the results depend on the processing

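Of 264 other fits of a member's log2 fold change, 252 kept its direction and its side of the threshold, 4 passed the threshold and 8 turned the direction. This tally does not measure robustness, since many of the fits left out only 1 library and share most of their data. Fits of 1 sex label, with 12 libraries or with the macrophage covariate called 0 genes at all, and those with 13 libraries called 0 lower. Staying short of the threshold there says nothing particular to the members. Members called lower were 2 with DESeq2 (3.42% of 33207 genes with any count), 1 with voom (4.12% of all genes tested) and 0 to 1 when 1 library was left out (1 without TauT+/+ male 3, 4.88%), and members called higher were 0 in all of these. Pathway genes called higher were 4 with DESeq2, 2 with voom and 0 to 2 when 1 library was left out, and 0 without a filter on low counts, with the replicate block, with the macrophage covariate, in either sex label alone and with 13 or 12 libraries. Pathway genes called lower were 1 with DESeq2, 1 with voom and 0 to 1 with 1 library left out. Marker genes called higher were 13 with DESeq2, 12 with voom, 0 to 7 with 1 library left out, and 0 under the same settings as the pathway genes. Marker genes called lower were 2 with DESeq2, 2 with voom, 1 with the replicate block and 0 to 2 with 1 library left out. The highest of these counts with 1 library left out came without TauT+/+ male 3. Over all genes, DESeq2 called 968 higher and 1136 lower of 33207, and voom 611 and 708 of 17204. Without TauT+/+ male 3, edgeR called 476 and 779 of 15966. The settings with 0 pathway or marker genes higher called few genes of any kind higher. They called 32 without a filter, 82 with the replicate block, 2 or 7 with 13 libraries and 0 in the rest, so these zeros are not particular to the listed genes.

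With the replicate number as a block, edgeR called 82 genes higher and 177 lower, against 94 and 129 without it, and 0 members. Same-numbered libraries of the genotypes had deviations that correlated at 0.187 to 0.622 in the 4 male-labelled pairs and at 0.277, 0.072 and -0.04 in the 3 female-labelled pairs, and 11 of 14 libraries were closest to the one with their own number. Every male-labelled library was among these 11. TauT+/+ male 3 and TauT-/- male 3 were the closest pair of all after the near-identical ones (spread 0.3). Since not every pair was over 0.1 and no label ties the numbers, they were not taken to pair the libraries in the main fit. Whether the male-labelled libraries are paired was not settled. Under the replicate block the log2 fold change of Il1a was -0.027, of Fpr1 -0.079 and of Kit -0.38, and that of Il1rn was -0.98, of Il1b 0.0001 and of Il1rl1 1.22. With the macrophage covariate it was -1.75 for Il1a, -0.77 for Il1b, 0.18 for Il18, -0.81 for Il33, 0.12 for Il1r1, -0.25 for Il1rl1, -1.87 for Fpr1 and -0.58 for Kit. Kit was -1.22 with voom, and Ccl2 was -0.43 in female-labelled libraries alone. With 1 library left out, Il1a ran from -0.51 to 1.77 and Kit from -0.46 to 0.93. The causes were not tested. The filters of some fits removed Il33, Il1r2 or Il1a, which then gave no value, and the low counts of these members limit what can be seen of them.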
